A study of Homo sapiens with 12 samples.

Results

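The genes described here are those that split the 12 arrays of a microRNA experiment in LNCaP prostate cancer cells into 6 and 6 with no overlap. On one side were the cultures transfected with miR-205 or miR-203, in which genes of cell division had the lower values, and on the other those transfected with miR-130a or a scramble microRNA. A gene was a member if its 6 values on one side all lay above its 6 values on the other. Of 11963 genes, 550 were members (4.60%). The miR-205 and miR-203 arrays held the lower values for 335 of them (2.80% of all genes) and the higher values for 215 (1.80%). The members were thus chosen by these same log2 values, so the differences between the sides are given as a description and were not tested. Tests were made within a side, for miR-205 minus miR-203 and for miR-130a minus scramble. The rule did not use these differences as such, but keeping the sides apart limits how far the groups of a side can differ, so the members' shares of calls within a side are a description too.

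LNCaP is an androgen-responsive line from a prostate tumour, and the labels call the tumour stage early. The 4 groups were LNCaP transfected with miR-205, LNCaP transfected with miR-203, LNCaP transfected with miR-130a, and LNCaP transfected with a scramble microRNA as the control. Each group had 3 arrays of total RNA, which the labels name biological replicates. The sources used here state neither the dose of microRNA nor the time after transfection, so all groups share the line and the transfection as far as the labels go.

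A dividing cell first licenses and copies its DNA and then condenses, aligns and separates the chromosomes. Genes for copying are switched on around the start of S phase, largely through E2F transcription factors. Genes for chromosome separation come on later, through complexes with B-MYB and FOXM1 that act at promoters with CCAAT boxes and a cell cycle homology region (CHR). Proliferating cultures hold cells in all of these phases, so the array level of a phase-specific transcript reflects the whole culture. Fewer cells in a phase and less RNA per cell cannot be told apart in such bulk samples.

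The microRNAs of the side with lower cell cycle values are shown with their seed, bases 2 to 8, in capitals, because the seed sets which transcripts a microRNA pairs with. The sequences are the RefSeq mature forms (GRCh38.p14). The labels do not say which arm of a hairpin was transfected, so the arm of each name below is that of the RefSeq entry usually meant by the short name.
hsa-miR-205-5p: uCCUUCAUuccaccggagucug
hsa-miR-203a-3p: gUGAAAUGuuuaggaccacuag
The first lies at chr1:209432166-209432187 on the plus strand and the second at chr14:104117469-104117490 on the plus strand. Their seeds are different, so the shared direction described below joins 2 microRNAs of different seed families.

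The values are log2 signals on a scale that started at 2.36 and reached 13.95, and array medians lay between 2.75 and 2.78. Arrays of a group correlated with r between 0.992 and 0.997 across the genes, which are not independent replicates. The 3′ minus 5′ signal of ACTB, a sign of RNA quality, was 2.18 to 2.54 on the miR-205 and miR-203 arrays and 2.18 to 2.66 on the miR-130a and scramble arrays. That of GAPDH was 0.60 to 0.80 against 0.56 to 0.90, so both measures overlapped between the sides. Within the first side the GAPDH measure was 0.60 to 0.73 with miR-205 and 0.74 to 0.80 with miR-203, which do not overlap, and its part in that contrast was not tested. It was 0.72 to 0.74 with miR-130a and 0.56 to 0.90 with scramble. Luminal prostate markers were above the array median on every array for 8 of 8 genes. None of 8 leukocyte and endothelial markers exceeded it on any array, and 2 of 8 basal, 1 of 8 neuroendocrine and 2 of 10 fibroblast and smooth muscle markers were bright enough to be tested. Summed log2 values of the luminal markers were 65.80 to 66.48 with miR-205 and 61.33 to 62.13 with miR-203, against 65.20 to 65.51 with miR-130a and 64.84 to 65.91 with scramble. Their part in the results was not tested, and KRT18, a keratin, was the 1 luminal marker among the members (-0.36). Summed values of the fibroblast and smooth muscle markers were 25.59 to 25.61 with miR-205, 25.26 to 25.89 with miR-203, 26.13 to 26.58 with miR-130a and 25.52 to 25.79 with scramble. The miR-130a arrays lay above the scramble arrays, and the part of this in that contrast was not tested. Summed values of the basal markers were 21.05 to 21.23 with miR-205 and 21.26 to 21.53 with miR-203. They were 20.92 to 21.24 with miR-130a and 21.26 to 21.49 with scramble. For these the groups of each side lay narrowly apart, and the part of this in the contrasts was not tested.

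TPX2, which activates the Aurora A kinase and builds the spindle, had the largest side difference among the lower members at -1.67 log2 (miR-205 and miR-203 minus miR-130a and scramble). Its values were 4.32, 4.89 and 4.61 with miR-205 and 4.85, 5.30 and 4.80 with miR-203. They were 6.80, 6.71 and 6.63 with miR-130a and 6.17, 6.42 and 6.07 with scramble. A gap of 0.76 log2 separated the highest of the first 6 arrays, a miR-203 array, from the lowest of the others, a scramble array. CDC20, the activator of the anaphase-promoting complex, stood at 4.21, 5.15 and 4.84 with miR-205 and 5.26, 5.69 and 5.47 with miR-203. The other side gave 6.67, 6.72 and 6.67 with miR-130a and 6.51, 6.62 and 6.28 with scramble. All 4 groups of CDC20 lay apart, in the order miR-205, miR-203, scramble, miR-130a. MCM5, a subunit of the helicase that opens DNA for copying, read 3.94, 4.71 and 4.37 with miR-205 and 5.39, 5.70 and 5.52 with miR-203. It read 6.52, 6.63 and 6.54 with miR-130a and 6.13, 6.08 and 5.73 with scramble. Here the sides met closely, with a gap of 0.04, and the miR-205 arrays alone lay more than 1 log2 under the scramble arrays. The 3 genes were split by the rule that chose them, which is no check of their direction, and they differ in how far the miR-203 arrays stand from scramble.

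Over all 6821 tested genes, miR-205 minus miR-203 passed the threshold of an adjusted p under 0.05 downwards for 21.0% and upwards for 16.9%, and miR-130a minus scramble downwards for 11.6% and upwards for 12%. CDC20 was lower with miR-205 than with miR-203 by limma (-0.74 ± 0.19, SE, adjusted p = 0.00715), and miR-130a minus scramble was 0.21 ± 0.19 (adjusted p = 0.453). The first call ended when only the 6 arrays compared were fitted (adjusted p = 0.0525) and without the filter on dim probe sets (adjusted p = 0.0501). MCM5 gave the largest of these contrasts among the 3 genes, at -1.20 ± 0.16 for miR-205 minus miR-203 (adjusted p = 8.52e-05). With miR-130a MCM5 was 0.58 ± 0.16 above scramble (adjusted p = 0.0198), a call that ended without the filter (adjusted p = 0.10) and on leaving out either miR-130a replicate 2 or scramble replicate 3 (adjusted p = 0.0679 and 0.0917, in that order). For TPX2, miR-205 minus miR-203 was -0.38 ± 0.16 (adjusted p = 0.0721), which passed with the replicate block (adjusted p = 0.0239, or 0.0124 with the block for these 2 groups alone), with array weights (-0.62, adjusted p = 0.00322), without miR-205 replicate 2 (adjusted p = 0.0227) and without miR-203 replicate 3 (adjusted p = 0.0493). TPX2 was 0.49 ± 0.16 higher with miR-130a than with scramble (adjusted p = 0.0356), and leaving out any of 5 arrays of the 2 groups ended the call (miR-130a replicate 1, 2 or 3, adjusted p = 0.109, 0.0866 and 0.0618, and scramble replicate 1 or 3, adjusted p = 0.0865 and 0.132), as did dropping the filter (adjusted p = 0.145).

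**Figure D1:**
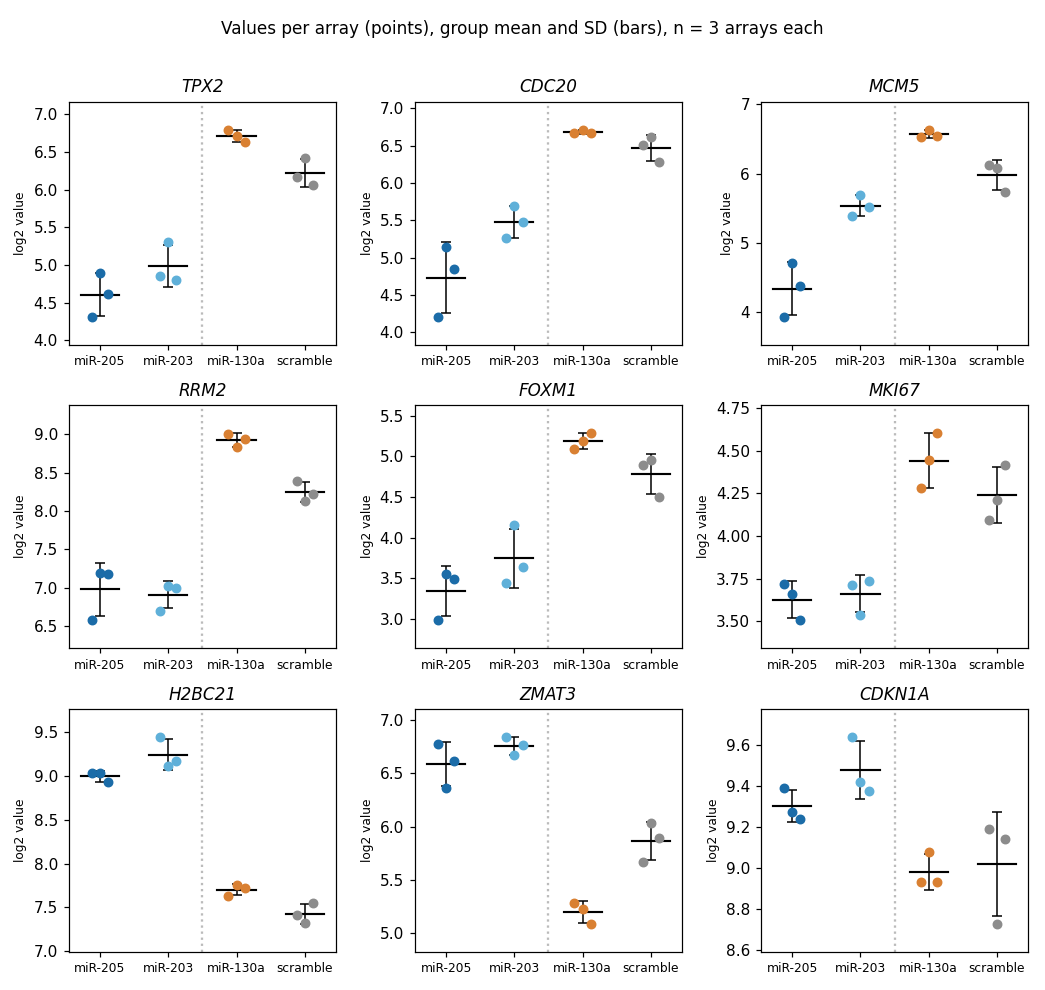
Log2 values on each array (points) for 9 named genes, with the group mean and SD as bars (n = 3 arrays each) and a dotted line between the sides. TPX2, CDC20, MCM5, RRM2, FOXM1 and MKI67 are lower, and H2BC21, ZMAT3 and CDKN1A higher, on all 6 miR-205 and miR-203 arrays than on the other 6.

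The 10 lists of cell cycle genes, from mitotic kinases to G1-S regulators, together held 212 measured genes. Of these, 95 were members with lower values (44.8%, against 2.80% of all genes) and 0 were members with higher values (against 1.80%). The lists thus made up 28.4% of the 335 lower members and 1.77% of all genes. Over the 201 list genes bright enough to be tested, the median side difference was -0.70 and 190 were negative. Over all 6821 tested genes the median was 0.00. The lists were written with earlier results of these data known, and their share among the members is not independent evidence. The 0 holds for these 10 lists only. Outside them, E2F5, an E2F factor, was a higher member (0.46). So were 3 of 19 genes on a separate list of cycle inhibitors and quiescence genes (against 1.80% of all genes).

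Over all genes, 2.80% were lower members, the share to set beside the cell cycle list counts that follow. Mitotic genes had the largest list medians of the cell cycle groups. Of 21 kinases, cyclins and their regulators, 11 were lower members, and the median side difference of the list was -0.96. CCNB2, a mitotic cyclin, had values of 4.53, 5.61 and 5.38 with miR-205 and 5.93, 6.39 and 6.39 with miR-203. Those of miR-130a were 7.34, 7.18 and 7.23, and those of scramble 6.85, 6.76 and 6.58. One miR-205 array lay far below the other two, but without overlap among the 4 groups. AURKB, the kinase of the chromosomal passenger complex, averaged 3.13 ± 0.25 with miR-205 and 3.93 ± 0.09 with miR-203, against 4.94 ± 0.19 with miR-130a and 4.60 ± 0.12 with scramble (SD, n = 3 each). CDK1, CCNB1 and CCNA2 were lower on average, with side differences of -1.02, -0.97 and -0.97, but their arrays overlapped and they were not members.

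Among 26 spindle and kinesin genes, 14 were lower members (median side difference -1.06). KIF20A, a kinesin of cytokinesis, averaged 4.06 ± 0.27 with miR-205 and 4.50 ± 0.35 with miR-203, against 6.15 ± 0.11 with miR-130a and 5.21 ± 0.11 with scramble. HMMR, which binds spindle microtubules and hyaluronan, had the values 5.87, 6.42 and 6.14 with miR-205 and 5.96, 6.69 and 6.54 with miR-203. It had 7.86, 8.02 and 8.02 with miR-130a and 7.53, 7.51 and 7.36 with scramble. For HMMR the miR-205 and miR-203 arrays overlapped, while the miR-130a arrays lay above the scramble arrays. DLGAP5, which stabilises spindle microtubules, differed by -1.59 between the sides, and the microtubule bundler PRC1 by -1.29.

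The kinetochore joins chromosomes to the spindle, and 8 of its 19 measured list genes were lower members. NDC80, which grips the microtubule, was at 4.59, 4.93 and 5.0 with miR-205 and 5.21, 5.88 and 6.02 with miR-203. The miR-130a arrays read 7.08, 6.94 and 6.97 and the scramble arrays 6.32, 6.45 and 6.22. The 4 groups of NDC80 did not overlap. Anaphase, securin, condensin and cytokinesis genes had the highest proportion of members, 13 of 18. TOP2A, which untangles DNA, averaged 5.45 ± 0.22 with miR-205 and 6.25 ± 0.45 with miR-203, against 7.40 ± 0.12 with miR-130a and 6.92 ± 0.17 with scramble. MKI67, the gene of the Ki-67 proliferation marker, read 3.72, 3.66 and 3.51 with miR-205 and 3.72, 3.54 and 3.74 with miR-203. It read 4.28, 4.45 and 4.60 with miR-130a and 4.10, 4.21 and 4.42 with scramble. For MKI67 neither test within a side passed (miR-205 minus miR-203 -0.04 ± 0.11, adjusted p = 0.823, and miR-130a minus scramble 0.20 ± 0.11, adjusted p = 0.190).

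The genes that copy DNA formed the second large block. Licensing and helicase genes gave 13 lower members of 24 (median side difference -0.74), with MCM2, MCM3, MCM4, MCM5, MCM6 and MCM7 all among them. MCM2 averaged 5.72 ± 0.17 with miR-205 and 6.18 ± 0.12 with miR-203, against 7.51 ± 0.04 with miR-130a and 6.71 ± 0.14 with scramble. GINS2, of the GINS complex of the same helicase, stood at 4.37, 4.62 and 4.71 with miR-205 and 4.68, 5.23 and 5.22 with miR-203. Its miR-130a values were 6.54, 6.46 and 6.49 and its scramble values 5.97, 6.14 and 5.62. The whole GINS complex was split this way, since GINS1, GINS3 and GINS4 were also lower members. Origin recognition genes were not, with ORC2 at 0.10, ORC5 at -0.08 and ORC6 at -0.72.

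Polymerase, clamp and ligase genes of the fork had 12 lower members of 23 (median -0.53). POLA2, a subunit of the primase-polymerase alpha complex, averaged 4.21 ± 0.02 with miR-205 and 4.68 ± 0.10 with miR-203, against 5.60 ± 0.17 with miR-130a and 5.09 ± 0.25 with scramble. PCNA, the sliding clamp, differed by -0.69 and was a member too. Nucleotide synthesis was split only in part, with 4 lower members of 21 (median -0.20). These were RRM2 and RRM1, which form ribonucleotide reductase, the thymidylate synthase TYMS and DUT, which removes dUTP. The purine synthesis genes GART (-0.07) and PFAS (0.00) differed little on average. RRM2 was at 6.58, 7.19 and 7.17 with miR-205 and 6.70, 7.02 and 7.0 with miR-203. With miR-130a it was at 9.01, 8.84 and 8.94 and with scramble at 8.39, 8.14 and 8.22. Its gap of 0.95 was the widest of the lower members, and the miR-205 and miR-203 arrays were mixed.

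DNA repair and fork protection genes gave 9 lower members of 20, among them BRCA1 at 4.04 ± 0.21 with miR-205 and 4.21 ± 0.30 with miR-203, against 5.18 ± 0.05 with miR-130a and 4.93 ± 0.23 with scramble. Chromatin replication genes gave 8 of 18, including the histone chaperone ASF1B (-1.33), the chromatin protein HMGB2 (-1.26) and the methyltransferase EZH2 (-1.02). The G1-S regulators were split least, with 3 lower members of 22. MYBL2, which encodes B-MYB, averaged 3.94 ± 0.12 with miR-205 and 4.47 ± 0.14 with miR-203, against 5.49 ± 0.06 with miR-130a and 5.07 ± 0.14 with scramble. The others were E2F1 (-0.46) and the cyclin CCND3 (-0.62), while RB1 (-0.10), CDK4 (-0.24) and CCNE1 (0.09) were not members. FOXM1, a transcription factor of mitotic genes outside the lists, had 2.98, 3.55 and 3.50 with miR-205 and 3.44, 4.15 and 3.64 with miR-203. It had 5.09, 5.19 and 5.28 with miR-130a and 4.89, 4.96 and 4.50 with scramble, a side difference of -1.44.

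**Figure D2:**
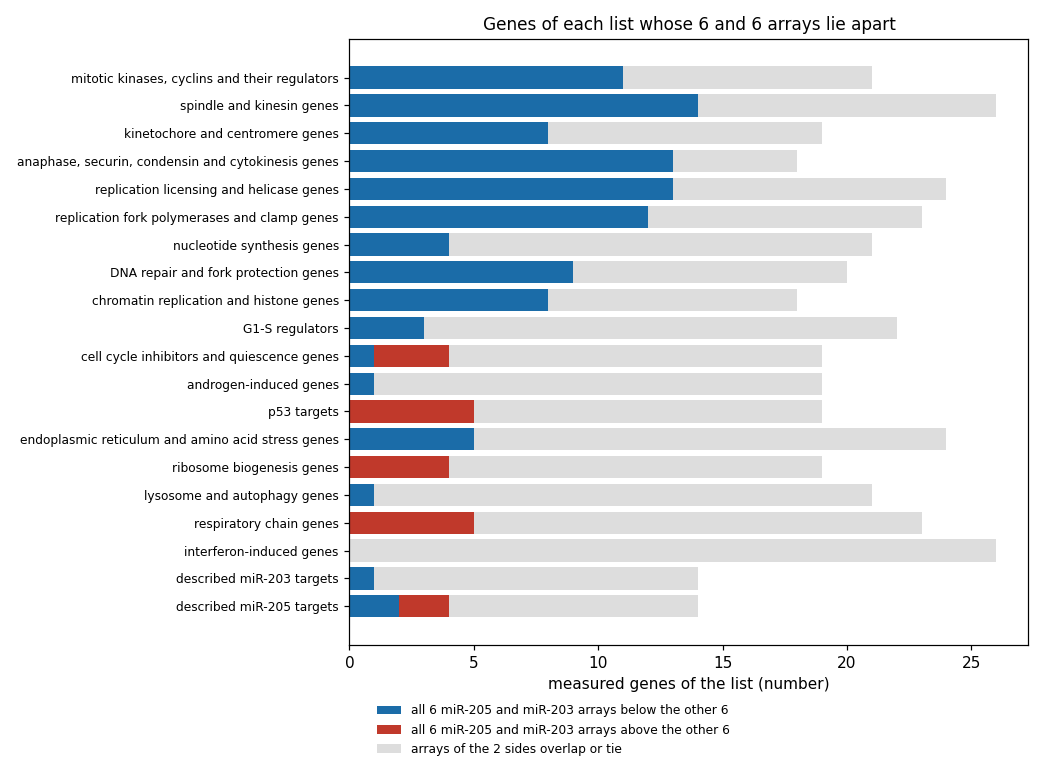
Number of measured genes in each list (horizontal axis) whose 6 miR-205 and miR-203 arrays all lay below (blue) or above (red) the other 6, with overlapping or tied genes in grey. Lower members fill 11 of 21 mitotic kinase and 13 of 18 anaphase genes, the 10 cell cycle lists have 0 higher members, and the interferon list has 0 members.

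Promoters of some of these members are shown because genes that are on in the same phase often share short motifs there. Each is the RefSeq sequence of the 150 bases before the first listed start (GRCh38.p14), 5′ to 3′ on the gene's strand. Capitals mark CCAAT or its reverse complement ATTGG, the CHR core TTTGAA or its reverse complement TTCAAA, and E2F-like matches. The E2F-like letters searched were TTTGGCGC, TTTCCCGC, TTTCGCGC and TTTGGCGG on both strands, and adjoining matches can share bases or run together. CDC20 and CCNB2 are examples of the mitotic members and GINS2 and POLA2 of the replication members. RRM2 had the largest difference in nucleotide synthesis, and H2BC21 the largest among the higher members. CDC20, CCNB2, GINS2 and POLA2 were picked without a rule and need not be typical, and the shares of members with each motif are given below.
CDC20: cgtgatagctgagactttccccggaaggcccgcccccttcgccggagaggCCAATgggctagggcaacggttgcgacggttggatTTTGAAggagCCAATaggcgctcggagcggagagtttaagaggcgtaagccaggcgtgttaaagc
CCNB2: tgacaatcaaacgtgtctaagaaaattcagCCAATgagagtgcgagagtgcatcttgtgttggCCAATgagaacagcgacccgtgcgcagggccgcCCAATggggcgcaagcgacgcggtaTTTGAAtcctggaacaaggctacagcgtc
GINS2: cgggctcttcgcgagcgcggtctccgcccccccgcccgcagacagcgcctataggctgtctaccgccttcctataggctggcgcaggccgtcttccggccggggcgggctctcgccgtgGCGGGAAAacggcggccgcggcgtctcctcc
POLA2: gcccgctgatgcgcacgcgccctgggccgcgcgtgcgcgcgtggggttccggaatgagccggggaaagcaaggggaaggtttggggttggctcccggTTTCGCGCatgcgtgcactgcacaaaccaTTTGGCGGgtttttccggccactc
RRM2: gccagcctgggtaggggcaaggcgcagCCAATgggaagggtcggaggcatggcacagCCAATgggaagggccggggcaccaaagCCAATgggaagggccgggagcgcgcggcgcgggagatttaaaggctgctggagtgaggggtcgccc
H2BC21: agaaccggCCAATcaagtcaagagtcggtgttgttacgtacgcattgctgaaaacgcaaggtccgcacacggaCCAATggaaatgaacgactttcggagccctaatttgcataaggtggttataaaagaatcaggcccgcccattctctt
They lie at chr1:43358831-43358980 (plus strand), chr15:59104996-59105145 (plus), chr16:85688955-85689104 (minus), chr11:65261812-65261961 (plus), chr2:10122589-10122738 (plus) and chr1:149886683-149886832 (minus). In CDC20 the CHR core began 65 bases before the start, between CCAAT boxes that began 100 and 55 bases before it. CCNB2 had CCAAT at 120, 87 and 54 bases and the CHR core at 29 bases. GINS2 held GCGGGAAA, the reverse complement of an E2F-like motif, 31 bases before the start, and POLA2 held 2 E2F-like matches at 53 and 24 bases. RRM2 had CCAAT at 123, 93 and 66 bases before its start, and H2BC21 at 142 and 77.

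Over 250 bases before the first listed start, the CHR core stood in 50.0% of the 40 mitotic members with a promoter in the table. It stood in 0.00% of 20 replication members, 5.23% of 172 higher members and 7.90% of 5737 tested genes. E2F-like matches ran the other way, in 50.0% of the replication members, 7.50% of the mitotic members, 2.33% of the higher members and 5.18% of the tested genes. CCAAT stood in 75.0% of the mitotic members and 55.0% of the replication members, against 34.9% of the higher members and 37.4% of the tested genes. Both CCAAT and the CHR core were present in 47.5% of the mitotic members and 3.42% of the tested genes. The same lists' genes that were not members gave like figures for the CHR core, 40.6% of 32 mitotic genes and 0.00% of 20 replication genes. Of these 20 replication genes, 4 held an E2F-like match. With any listed start counted, 7 of these 20 held one (35.0%), against 10 of the 20 replication members (50.0%). Among all 27305 promoters of the table, the shares were 33.0% for CCAAT, 13.6% for the CHR core and 2.91% for the E2F-like letters. The letters describe these windows and were not tested as binding sites.

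**Figure D3:**
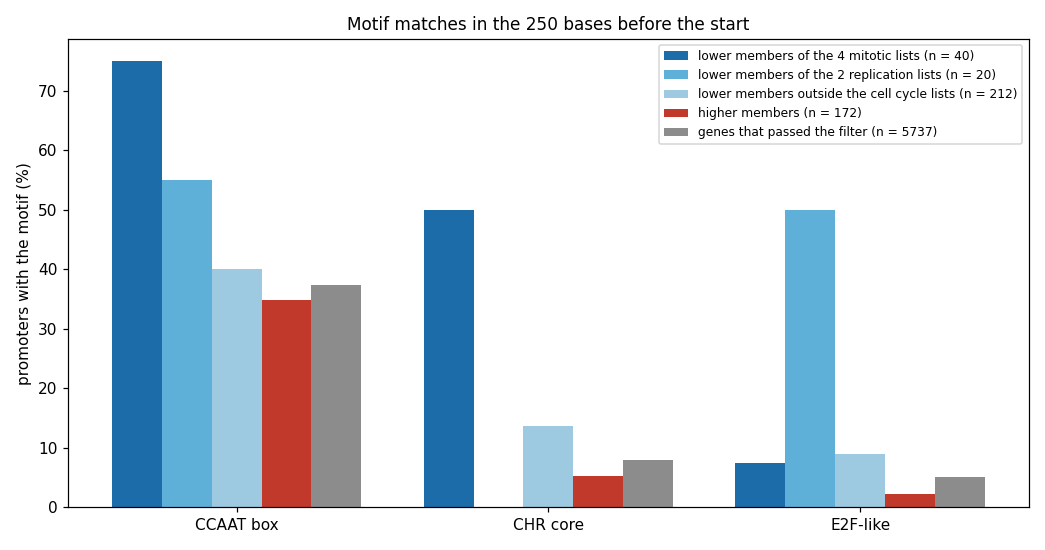
Share of promoters (vertical axis, percent) with each motif in the 250 bases before the first listed start, for 4 sets of members and the genes that passed the filter. The CHR core reaches 50.0% in the mitotic members and the E2F-like letters 50.0% in the replication members, against 7.90% and 5.18% of the tested genes.

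Most lower members, 240 of 335, were outside the cell cycle lists, and 18 of these 240 were lower by 1 log2 or more. Some are themselves genes of the cycle or of repair. MDC1, a scaffold of the DNA damage response, had 4.20, 4.69 and 4.40 with miR-205 and 3.82, 4.18 and 4.03 with miR-203. It had 6.10, 6.0 and 5.93 with miR-130a and 5.51, 5.24 and 5.24 with scramble. On this probe set miR-203 was the lower of the 2 groups on its side (miR-205 minus miR-203 0.42 ± 0.13 by limma, adjusted p = 0.0196). With the mean of the gene's probe sets the difference was 0.13 (adjusted p = 0.388), and the call ended in 6 settings in all. DTL, an adaptor that marks CDT1 for destruction, differed by -1.33, and CDCA3 by -1.34. PCLAF, which binds PCNA, differed by -1.10.

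In a further set of lower members the miR-205 and miR-203 groups differed widely from each other. LASP1, an actin-binding protein described as a miR-203 target, read 7.05, 7.31 and 7.20 with miR-205 and 5.36, 5.78 and 5.60 with miR-203. It read 7.86, 7.67 and 7.81 with miR-130a and 7.51, 7.52 and 7.60 with scramble. The miR-203 arrays were by far the lowest, and miR-205 minus miR-203 was 1.60 ± 0.10 (adjusted p = 1.36e-07). CETN3, a centrin of the centrosome, was likewise lowest with miR-203, with miR-205 minus miR-203 of 1.22 ± 0.09 (adjusted p = 3.81e-07), and so was the proteasome chaperone PSMD10 (0.87 ± 0.07, adjusted p = 1.13e-06). RPL26L1, a paralog of a ribosomal protein, ran the other way. Its values were 6.26, 6.40 and 6.39 with miR-205 and 8.03, 7.94 and 7.96 with miR-203, against 8.35, 8.15 and 8.09 with miR-130a and 8.43, 8.06 and 8.20 with scramble. Only the miR-205 arrays stood clearly down, at -1.63 ± 0.10 against miR-203 (adjusted p = 6.97e-08), and near-identical ribosomal sequences can share its probes. On the described target lists, 1 of 14 measured miR-203 targets (7.14%) and 2 of 14 measured miR-205 targets (14.3%) were lower members. Higher members included 2 miR-205 targets, MED1 and E2F5. Of all genes, 2.80% were lower and 1.80% higher members, and counts this small are a description only.

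Endoplasmic reticulum and amino acid stress genes gave 5 lower members of 24 (20.8%, against 2.80% of all genes). CRELD2, a stress-induced protein of the endoplasmic reticulum, averaged 6.41 ± 0.07 with miR-205 and 6.41 ± 0.05 with miR-203, against 7.21 ± 0.01 with miR-130a and 7.09 ± 0.10 with scramble. XBP1 (-0.61), MANF (-0.69), PSAT1 (-0.69) and CEBPB (-0.63) were the others. They did not share 1 pattern. By limma, MANF was lower with miR-203 than with miR-205 (miR-205 minus miR-203 0.75 ± 0.09, adjusted p = 2.79e-05). PSAT1 was highest with scramble (miR-130a minus scramble -0.65 ± 0.12, adjusted p = 0.00176). Of the 24 list genes, 11 were lower with miR-130a than with scramble (45.8%, against 11.6% of all tested genes) and 2 were higher (8.33%, against 12%). The chaperone HSPA5 (-0.15) was not a member. GARS1, a transfer RNA synthetase outside the list, split the arrays in a different pattern from CRELD2. It read 8.91, 9.01 and 8.99 with miR-205 and 9.04, 8.96 and 8.67 with miR-203, against 9.25, 9.27 and 9.31 with miR-130a and 10.36, 10.15 and 10.33 with scramble. Its scramble arrays stood well above all the others, and miR-130a minus scramble was -1.01 ± 0.09 (adjusted p = 6.33e-06).

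The 215 higher members differed less. Their median side difference was 0.40 (range 0.11 to 1.56), and 4 differed by 1 log2 or more. For the lower members the median was -0.57 (range -1.67 to -0.11), and 68 differed by 1 or more. H2BC21, which encodes a histone H2B, led the higher members. It read 9.03, 9.03 and 8.93 with miR-205 and 9.45, 9.12 and 9.17 with miR-203, against 7.63, 7.75 and 7.72 with miR-130a and 7.41, 7.32 and 7.54 with scramble. Its gap of 1.17 log2 was the widest of all members. Histone genes are a family of near-identical copies whose probes may not tell them apart. Of 50 measured histone genes, a set put together after their values were seen, 23 passed the brightness filter. Lower members were 3 and higher members 3, against 2.80% and 1.80% of all genes. H2AX, which marks DNA breaks, was among the lower (-1.04) and H4C8 among the higher (0.60).

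ZMAT3, an RNA-binding protein induced by p53, read 6.78, 6.36 and 6.62 with miR-205 and 6.84, 6.68 and 6.77 with miR-203. It read 5.29, 5.22 and 5.09 with miR-130a and 5.67, 6.03 and 5.89 with scramble. The 2 groups of the first side overlapped, and miR-130a was lower than scramble (-0.67 ± 0.11, adjusted p = 0.000976). Of 19 measured p53 target genes 5 were higher members and 0 were lower members, against 1.80% and 2.80% of all genes. CDKN1A, the p21 inhibitor of cyclin-dependent kinases, read 9.39, 9.27 and 9.24 with miR-205 and 9.64, 9.42 and 9.38 with miR-203, against 8.93, 9.08 and 8.93 with miR-130a and 9.19, 8.73 and 9.14 with scramble. Its gap was 0.05. TIGAR, a phosphatase of sugar metabolism (0.52), the atypical cyclin CCNG1 (0.37) and the kinase PLK2 (0.34) were the others. MDM2 (0.21), BAX (0.07) and SESN1 (0.11) were not members, and GDF15 was lower on average (-0.61) without the sides lying apart, so the list's median side difference was 0.08.

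Over all genes, 1.80% were higher members, the share to set beside the list counts that follow. Inhibitors of the cycle and quiescence genes held 3 higher members of 19, CDKN1A, CCNG1 and the antiproliferative TOB1 (0.57). CDKN1B (0.27) was not a member, and CDKN3, a phosphatase that acts on CDK2, was a lower member (-1.29). Ribosome biogenesis genes held 4 higher members of 19, namely NCL (0.26), RRP1B (0.35), NIP7 (0.43) and MYC (0.40), which encodes a transcription factor that drives growth. Respiratory chain genes held 5 of 23, among them SDHD (0.36) and NDUFS1 (0.25), at a list median of 0.10. Other higher members were SEMA6A, a semaphorin (1.11), the chemokine receptor ACKR3 (0.92) and the Mediator subunit MED1 (0.92), which is on the list of described miR-205 targets. ACKR3 averaged 7.40 ± 0.05 with miR-205 and 8.29 ± 0.02 with miR-203, against 6.75 ± 0.05 with miR-130a and 7.10 ± 0.09 with scramble. All 4 groups of ACKR3 lay apart, and miR-205 minus miR-203 was -0.90 ± 0.07 (adjusted p = 4.93e-07).

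Interferon-induced genes supplied no member. Of 26 measured, 23 were tested. With miR-205 22 were lower than with miR-203 (95.7%, against 21.0% of all tested genes) and 0 higher. With miR-130a 22 were higher than with scramble (95.7%, against 12% of all tested genes) and 0 lower. Androgen-induced genes supplied 1 lower member of 19 (5.26%, against 2.80% of all genes), the condensin subunit NCAPD3 (-0.76). KLK3, the gene of prostate-specific antigen, read 12.06, 12.04 and 11.93 with miR-205 and 10.14, 10.34 and 10.15 with miR-203, against 11.11, 11.24 and 11.17 with miR-130a and 11.36, 11.48 and 11.50 with scramble. The groups of the first side lay on opposite sides of the others. Of 16 tested androgen-induced genes, 13 were higher with miR-205 than with miR-203 (81.25%, against 16.9% of all tested genes). Lysosome and autophagy genes had 1 lower member of 21 (4.76%), WIPI1 (-0.42). Its group means, 2.97 to 3.44, lay near the low end of the scale.

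**Figure D4:**
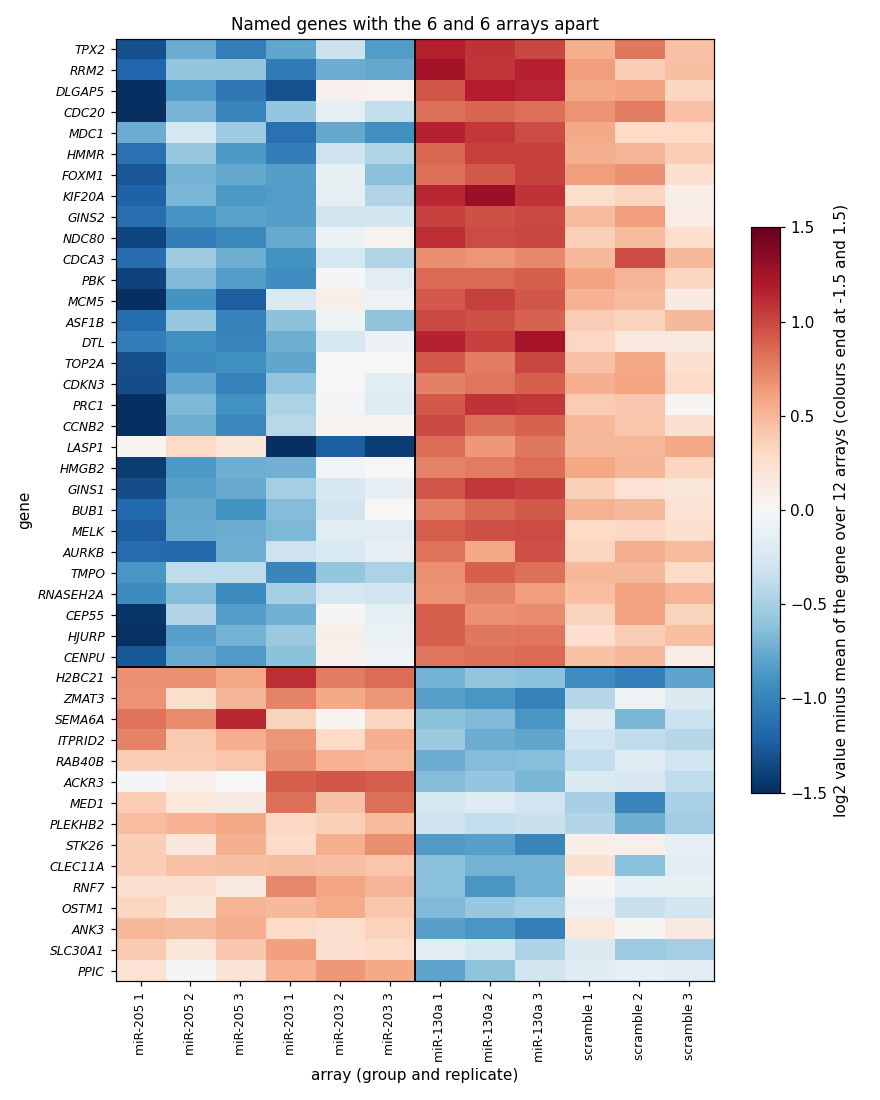
Log2 value minus the gene's mean over 12 arrays, for 30 lower (top) and 15 higher named genes (bottom), with the 6 miR-205 and miR-203 arrays left of the line and the 6 miR-130a and scramble arrays right of it. Lower members such as TPX2 and RRM2 change colour at the line, and the miR-203 arrays stand furthest out for LASP1 and the miR-205 arrays for MCM5.

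Within the sides, 333 lower and 214 higher members were bright enough to be tested, with signal over the median of the array on 3 or more arrays (4.88% and 3.14% of the 6821 tested genes). Of the 333, 315 exceeded the median on all 12 arrays, and 3 did so on no miR-205 or miR-203 array. KIAA0040, SFN and SLC25A21 were the members that stayed below the filter. Among the 333 lower members, 98 were lower with miR-205 than with miR-203 (29.4%, against 21.0% of all tested genes), 40 were higher (12%, against 16.9%) and 195 did not pass. The 98 became 65 when only the 6 arrays compared were fitted and 69 without the filter. The median difference of these members was -0.08, and that of all tested genes -0.03. Among the 214 higher members, 40 were lower with miR-205 than with miR-203 (18.7%), 13 were higher (6.08%) and 161 did not pass. Without miR-205 replicate 1 or 3 the 40 became 26, and without miR-205 replicate 1 or miR-203 replicate 1 the 13 became 8. Averaging the probe sets of each gene made them 23.

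In miR-130a minus scramble, 68 of the lower members were higher with miR-130a than with scramble (20.4%, against 12% of all tested genes), 15 were lower (4.51%, against 11.6%) and 250 did not pass. Without miR-130a replicate 1 the 68 became 44, and without scramble replicate 3 or without the filter they became 45. Of the higher members 10 were higher with miR-130a (4.67%, but 5 without miR-130a replicate 1 or 3 or without the filter, 16 with the mean of the probe sets and 23 with array weights), 33 were lower (15.4%) and 171 did not pass. The comparison of miR-205 with miR-203 and that of miR-130a with scramble share no arrays. Both use the same estimate of each gene's spread from all 12 arrays, so they are not separate tests. Of the lower members 36 passed both downwards with miR-205 and upwards with miR-130a (10.8%, against 4.03% of all tested genes), and 156 passed neither test (46.8%, against 49.8%).

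The cell cycle lists were counted over all their 201 tested genes, whether members or not. Of these, 106 were lower with miR-205 than with miR-203 (52.7%, against 21.0% of all tested genes). Another 7 were higher (3.48%, against 16.9%) and 88 did not pass. The median of the 201 was -0.38. With miR-130a 80 were higher than with scramble (39.8%, against 12% of all tested genes) and 6 were lower (2.99%, against 11.6%). The other 115 did not pass, and the median of the 201 was 0.37. Without the filter the 106 became 71 and the 80 became 53. With only the 6 arrays compared, the 106 became 73 and the 80 became 102. The 6 genes called lower with miR-130a became 3 without miR-130a replicate 3 or scramble replicate 2. Mitotic kinases and cyclins were the clearest, with 17 of 21 lower with miR-205 than with miR-203 (81.0%) and 0 higher. CCNB2 gave -1.06 ± 0.22 (adjusted p = 0.00190), AURKB -0.80 ± 0.13 (adjusted p = 0.000297), NDC80 -0.86 ± 0.17 (adjusted p = 0.00163) and TYMS -0.73 ± 0.12 (adjusted p = 0.000398). Among the replication genes GINS1 passed both tests, at -0.68 ± 0.14 for miR-205 minus miR-203 (adjusted p = 0.00183) and 0.76 ± 0.14 for miR-130a minus scramble (adjusted p = 0.00147). So did MCM2 (-0.47 ± 0.10, adjusted p = 0.00250, and 0.80 ± 0.10, adjusted p = 8.61e-05) and PRIM1, the primase (-0.62 ± 0.10, adjusted p = 0.000495, and 0.65 ± 0.10, adjusted p = 0.000627). RRM2 was 0.68 ± 0.15 higher with miR-130a (adjusted p = 0.00486). Its miR-205 minus miR-203 difference was 0.07 ± 0.15 (adjusted p = 0.744) on the probe set used and -0.53 on its other probe set (adjusted p = 0.0157), so the 2 probe sets disagree there while both split the sides.

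**Figure D5:**
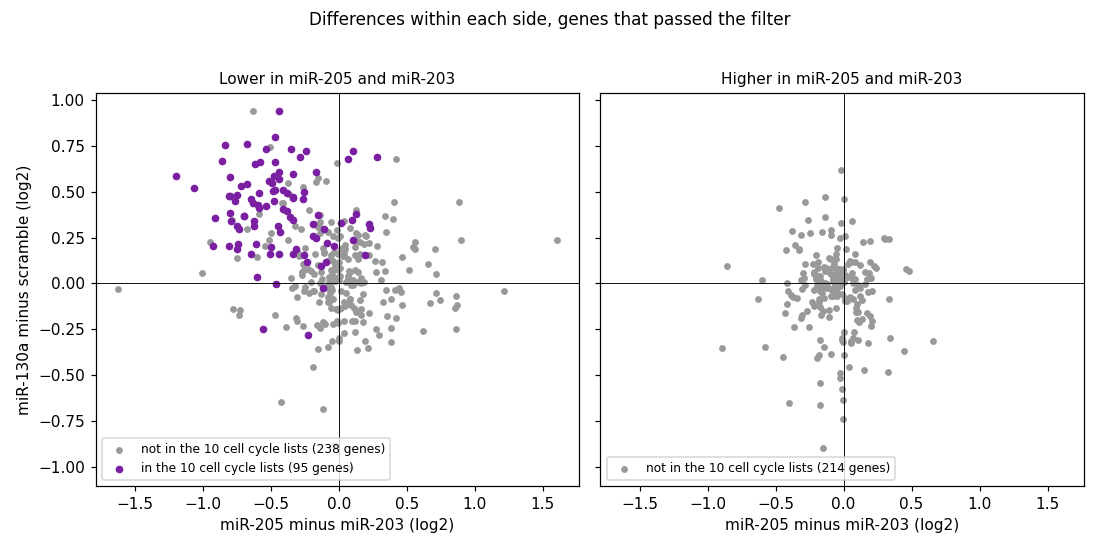
Differences of the members within each side, miR-205 minus miR-203 on the horizontal and miR-130a minus scramble on the vertical axis (both log2), for 333 lower members (left) and 214 higher members (right), with cell cycle list genes in purple. The purple points lie mostly at the upper left, where miR-205 is the lower of its pair and miR-130a the higher.

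The rule fixes which groups lie below the others, so only the order within each side could vary. In 155 of the 335 lower members (46.3%) the group means ran miR-205, miR-203, scramble, miR-130a from low to high. In 75 it was miR-203, miR-205, scramble, miR-130a, and the remaining orders held 54 and 51. In 60 of the 155 all 4 groups lay apart, CDC20, NDC80, MCM5, DTL and TOP2A being the 5 with the largest side differences. The higher members had no single leading order, since scramble, miR-130a, miR-205, miR-203 held 71 and miR-130a, scramble, miR-205, miR-203 held 69. In both of these miR-203 was the highest group, and miR-205 was the highest in the remaining orders, with 42 and 33. Against scramble alone, the lower members had a median difference of -0.53 with miR-205 and -0.49 with miR-203. Against miR-130a the medians were -0.59 with miR-205 and -0.60 with miR-203. The array miR-205 replicate 1 had the lowest value of all 12 for 146 of the 335 lower members, and miR-203 replicate 1 for 68. The median of the lower members on each array, relative to each gene's mean, was -0.37 on that miR-205 array and -0.16 to -0.32 on the other arrays of its side, against 0.18 to 0.36 on the miR-130a and scramble arrays.

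Probe sets that the rule did not use gave a second reading of the same arrays. For 98 of the lower members 133 further probe sets were bright enough, and 127 of them (95.5%) had the same direction, 56 (42.1%) with the sides apart and 0 with the sides apart the other way. For 96 of the higher members 133 further probe sets gave 128 in the same direction (96.2%), 28 apart and 0 apart the other way. Without the brightness filter, the same direction held for 165 of 201 (82.1%) further probe sets of lower members. It held for 151 of 173 (87.3%) of higher members. The other probe sets of MKI67 differed by -0.97, -0.75 and -0.64 between the sides, those of RRM2, AURKA and MCM5 by -1.62, -1.03 and -0.84, all with the sides apart. That of TOP2A differed by -1.17 with a small overlap. The other probe sets of the higher members RRP1B and NRIP1 differed by only 0.04 and 0.13, with the sides overlapping. They are the same RNA on the same arrays, so they bear on the probes and not on the cultures.

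The rule has a sharp edge that many genes lie near. Just inside it, CDC25C, a phosphatase that starts mitosis, had a gap of 0.000322 log2, NRIP1 of 0.000418, SNAP29 of 0.000672, IP6K2 of 0.000784 and H2AZ1 of 0.000885. In all, 45 members had a gap under 0.01. Just outside, 143 tested genes had a gap of exactly 0, such as AASDHPPT and ABCD4, and 104 overlapped by less than 0.01. With a gap of at least 0.2 log2 required, 100 lower and 29 higher members were left. Among the members 41 shared an identical value between arrays of 1 group (22 lower and 19 higher), which narrows their measured spread.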

How the data were processed

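Total RNA from 12 LNCaP cultures was measured on expression arrays with 22277 probe sets. The deposited log2 values are the authors' own, and the submitters' processing notes name R 2.9.0, RMA and limma with no role or order. The background method is not given in the sources used here. Gene names came from the platform annotation, where 19070 had 1 symbol, 1043 had several and 2164 had none. The probe set with the highest mean over 12 arrays stood for its gene. A group-means model over all arrays was fitted with limma 3.58.1 in R 4.3.3 with eBayes moderation (degrees of freedom 8 residual and 4.84 prior), two-sided, with Benjamini-Hochberg adjustment over 6821 genes at 0.05. Python 3.11.15, pandas 2.3.3 and numpy 2.4.6 did the rest, and the procedure was tested on simulated data. The number of arrays, 3 a group, limits the precision, and p-values cover the spread between these cultures.

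Replicate numbers, whose meaning the labels do not give, may pair the miR-205 and miR-203 arrays. Deviations from the group means of same-numbered arrays of these groups correlated with r = 0.171, 0.105 and 0.313, all over 0.1. Arrays of these groups with unlike numbers gave r of -0.28 to 0.096. Over all groups, unlike-numbered arrays reached 0.163, so the pairing is not certain. Same-numbered arrays of miR-130a and scramble gave r = -0.07, -0.02 and -0.02. The main fit used no pairing. Named genes were the 15 largest side differences in each direction, up to 4 members of each of 25 gene lists, the 5 largest and 5 smallest within-side calls in each contrast, the genes at the edge of the rule, and CDC20, TPX2, MCM5, MKI67, CDKN1A and KLK3. Other list genes and the histone genes were chosen after their values were seen. The members and lists were chosen with earlier results of these data known. Promoter and microRNA sequences are RefSeq's (GRCh38.p14). Each symbol's first listed start was used except where any listed start is named, and 293 lower and 172 higher members had one. The alternatives were another probe set rule, no filter, quantile scaling, a fit of 6 arrays, array weights, a replicate block, that block for miR-205 and miR-203 alone (chosen after seeing the data), leaving out genes with equal values and leaving out each array.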

Additional observations from a re-analysis of the deposited data

How the results depend on the processing

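The count of genes with the sides apart depends on the margin, at 100 lower and 29 higher with a gap of at least 0.2 log2, and leaving out 1 array raised it by construction to between 349 and 408 lower and 226 and 307 higher. Averaging the probe sets of a gene raised the higher members called higher to 23 for miR-205 minus miR-203 and to 16 for miR-130a minus scramble, and array weights raised the last to 23. Without the filter on dim probe sets, which adds tests, miR-130a minus scramble called higher 45 lower members, 5 higher members and 53 cell cycle list genes. In the same setting miR-205 minus miR-203 called lower 69 lower members and 71 cell cycle list genes. With only the 6 arrays compared, which leaves fewer arrays, miR-205 minus miR-203 called lower 65 lower members and 73 cell cycle list genes.

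Leaving out 1 array at a time, miR-205 minus miR-203 called lower 69 to 107 lower members, 26 to 40 higher members and 78 to 125 cell cycle list genes, and higher 36 to 44, 8 to 15 and 6 to 10. For miR-130a minus scramble, 10 to 16 lower members, 23 to 33 higher members and 3 to 6 cell cycle list genes were called lower, and 44 to 83, 5 to 11 and 56 to 96 higher. Over all tested genes the calls were 1091 to 1452 lower and 1016 to 1188 higher, and 554 to 853 lower and 586 to 876 higher.

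With the replicate block, miR-205 minus miR-203 called 101 lower members lower and 40 higher, and miR-130a minus scramble 14 lower and 77 higher. The block moved no count past 1.5 times. It added the TPX2 call given above and ended both H2BC21 calls, of miR-205 minus miR-203 and of miR-130a minus scramble (adjusted p = 0.0650 and 0.0631). Those limma calls were near the threshold (adjusted p = 0.0497 and 0.0476 in the main fit) and ended in 15 and 13 settings in all. With the block for the miR-205 and miR-203 arrays alone, chosen after seeing the data, miR-205 minus miR-203 called 110 lower members lower and 44 higher. That block moved no count past 1.5 times, and besides TPX2 it changed no call of a named gene.

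The miR-205 minus miR-203 difference of RRM2, which did not pass, was -0.53 on its other probe set, -0.23 averaged over both, -0.031 with array weights and -0.033 to 0.27 without single arrays. That of MKI67 was 0.030 with array weights and -0.10 to 0.025 without single arrays. The cause was not tested.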
